A study of Mus musculus with 4 samples.

Results

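The NRF2 antioxidant genes were followed through 4 libraries of macrophage cytosolic RNA. The 10 genes are Nfe2l2, which encodes NRF2, its repressor Keap1, and 8 genes of glutathione synthesis, thioredoxin recycling and quinone reduction that are known targets of NRF2. They were chosen by name and matched by symbol, 1 gene entry each, out of 55536 annotated genes. All 10 passed the filter on low counts, a mean of at least 10 expected counts, and so did 14041 genes in all. The libraries form 1 group of 4 biological replicates, made from ribosome-depleted total RNA of the cytosolic fraction of primary macrophages grown from the marrow of C57BL/6J mice and stimulated with lipid A, the Toll-like receptor 4 ligand of bacterial lipopolysaccharide, at 100 ng/ml for 15 min. The labels name 1 donor record for all 4 replicates and do not say whether they came from separate animals or cultures, and p-values therefore describe only how far these samples differ from each other, a difference that may be technical. No unstimulated or nuclear library was analysed here, so every value is a level in stimulated cells and not a response, and fewer cells and less RNA per cell cannot be told apart.

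NRF2 is a transcription factor held at a low protein level by KEAP1, an adaptor that presents it to the CUL3 ubiquitin ligase for degradation. Oxidants and electrophiles modify cysteines of KEAP1, NRF2 escapes degradation, enters the nucleus and binds antioxidant response elements together with small MAF proteins, while BACH1 occupies the same elements as a repressor. Its targets make glutathione, regenerate reduced thioredoxin and peroxiredoxins, and detoxify quinones. Macrophages use them against the oxidants that they themselves release during an immune response. Because NRF2 is controlled mainly as a protein, the level of its mRNA is not a measure of its activity.

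The libraries held 30088678 to 47961117 expected counts on annotated genes, with replicate 1 the shallowest. Levels in CPM are counts relative to the total of a library. A count of 0 allowed a level of 0.0997 CPM at most in replicate 1 and 0.0626 in replicate 2, the shallowest and deepest library, from counting error only. The 7SL RNA genes took 57.1% to 63.3% of all TPM, the deposited abundance per transcript length, which lowers the TPM of every other gene. All 10 macrophage markers reached a mean of 1 TPM. Of 37 markers for 7 other cell types, 4 did so, namely the neutrophil genes S100a8, S100a9 and Ngp and the dendritic cell gene Batf3. These 37 markers summed to 23.1 TPM in replicate 1 and to 29.0, 44.1 and 31.0 TPM in replicates 2, 3 and 4, and the neutrophil gene Ly6g and the T cell gene Cd3e were at or near 0. The 6 stromal markers, all under a mean of 1 TPM, summed to 11.3 CPM in replicate 3. In replicates 1, 2 and 4 they summed to 0.407, 0.715 and 0.229 CPM. Replicate 1 stood apart: edgeR's quasi-likelihood test against the other 3 libraries called 14.5% of the tested genes higher and 7.58% lower in it, at a Benjamini-Hochberg adjusted p under 0.05. A list of 12 DNA replication genes, chosen because an earlier look at these data had pointed to them, was higher in replicate 1 for 12 of 12, with a summed level of 467 TPM there and of 112 to 155 TPM in the others. The nuclear RNAs Malat1 and Neat1 divided the libraries otherwise. They made up most of a list of 5 nuclear RNAs, which summed to 2049 and 2019 CPM in replicates 1 and 2 and to 9754 and 6324 CPM in replicates 3 and 4. Of the rest of the list, Kcnq1ot1 was also higher in replicates 3 and 4, Tug1 varied little, at 110, 123, 129 and 132 CPM, and Meg3 was at or near 0.

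Promoter sequence was also looked at, and its part in the levels or folds of these genes was not tested. RefSeq promoter windows of GRCm38.p6, the build that mm10 names, run from 250 bases before to 50 after a start site and were matched for 9 of the 10 genes, with 3 start sites for Txnrd1. The core of the antioxidant response element was searched as TGACNNNGC on both strands and was found in 12.4% of 32851 windows of that length. It was present in 5 of the 11 windows of these genes, which is 5 of the 9 genes. The 12.4% is a share of windows and not of genes. In capitals below are the matches, which read in the opposite direction where they end in GTCA or, in Slc7a11, in ATCA. The sequences stop before the first annotated transcript start unless stated. Gclm and Txnrd1 are shown in full upstream of the start.
Gclm, chr3:122245307-122245556, plus strand: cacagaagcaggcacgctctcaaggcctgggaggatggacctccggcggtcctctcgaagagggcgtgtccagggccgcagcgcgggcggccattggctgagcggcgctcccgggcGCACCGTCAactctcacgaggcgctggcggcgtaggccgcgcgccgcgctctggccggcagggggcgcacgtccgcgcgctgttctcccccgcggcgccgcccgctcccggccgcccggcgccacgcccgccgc
Txnrd1, chr10:82858956-82859178, plus strand: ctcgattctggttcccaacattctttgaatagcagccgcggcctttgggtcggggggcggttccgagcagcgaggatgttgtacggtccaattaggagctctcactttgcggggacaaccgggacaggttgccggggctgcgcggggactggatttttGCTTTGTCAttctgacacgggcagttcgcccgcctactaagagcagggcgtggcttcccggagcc

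Shorter stretches show the other matches of the same core. Nfe2l2 itself carried 1 near the far end of its window, at position -240 from the start site. In Prdx1 the match at position -133 overlapped a match to TGACTCA, the AP-1 motif, which occurred in 5.2% of all windows. Prdx1 had another AP-1 match further upstream and Srxn1 had 2, all in capitals. The match of Srxn1 to the core as searched lay beyond its start site, at position 28, and is given as a site of its own. Other forms of the antioxidant response element were not searched.
Nfe2l2, chr2:75704880-75704913, minus strand: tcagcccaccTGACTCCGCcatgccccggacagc
Prdx1, chr4:116685349-116685489, plus strand: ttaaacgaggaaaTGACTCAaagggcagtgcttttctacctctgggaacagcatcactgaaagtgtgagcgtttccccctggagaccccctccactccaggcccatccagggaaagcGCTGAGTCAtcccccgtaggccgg
Srxn1, AP-1 matches, chr2:152105407-152105500, plus strand: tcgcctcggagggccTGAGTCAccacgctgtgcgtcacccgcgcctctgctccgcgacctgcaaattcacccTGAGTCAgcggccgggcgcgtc
Srxn1, antioxidant core, chr2:152105542-152105570, plus strand: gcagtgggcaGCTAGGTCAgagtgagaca

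Slc7a11 differed from these in its promoter. Its window held no antioxidant core but 2 matches to TGATGNAA, the core of the amino acid response element through which ATF4 acts, 1 on each strand, a motif found in 3.97% of all windows. Keap1, Txn1, Nqo1 and the other 2 start sites of Txnrd1 had no match to any of the 3 motifs, which says only that these letters are not in those windows.
Slc7a11, chr3:50443638-50443694, minus strand: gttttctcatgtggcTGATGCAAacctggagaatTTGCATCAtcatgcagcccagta

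**Figure D1:**
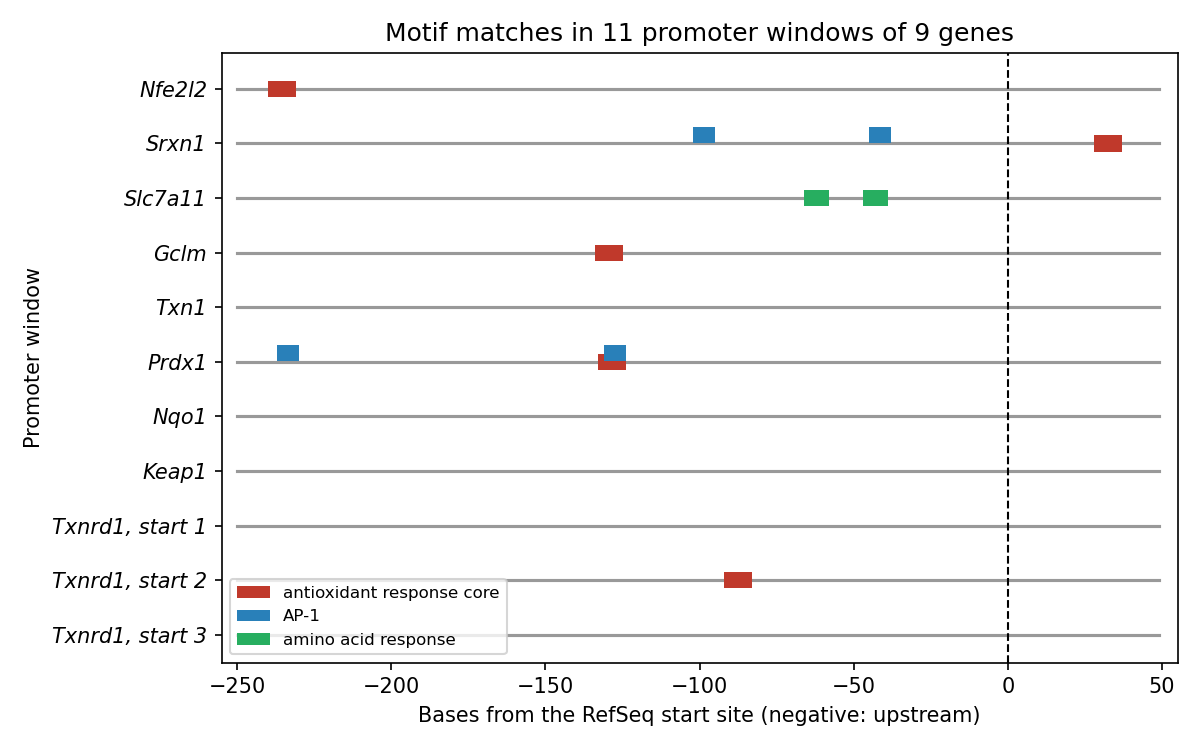
Motif matches in the 11 RefSeq promoter windows of 9 genes, by bases from the start site on the x axis; each grey line is a window and each box a match. The antioxidant core appears in Nfe2l2, Srxn1, Gclm, Prdx1 and the second start of Txnrd1, and the amino acid response core in Slc7a11 alone among these 9 genes.

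The genes covered a wide range of levels. The peroxiredoxin gene Prdx1 was the most abundant, at 266 ± 67.4 TPM (SD, n = 4), rank 151 of all 55536 genes by mean TPM. Nfe2l2 came next at 81.0 ± 27.9, then Txn1 at 59.2 ± 17.4, Txnrd1 at 29.9 ± 16.0, Srxn1 at 23.2 ± 9.75, Gclm at 13.5 ± 5.98, Keap1 at 11.1 ± 2.06 and Gclc at 5.16 ± 3.34 TPM (SD, n = 4 for each). Nqo1 and Slc7a11 were the lowest, at 0.545 ± 0.291 and 0.522 ± 0.151 TPM. Of the 9 steps in this order, the libraries' ranges were apart only between Prdx1 and Nfe2l2 and between Gclc and Nqo1. Thus 8 of the 10 genes reached a mean of 1 TPM. The pair below it was still read from 32 to 309 expected counts in each library, well over the 3 counts taken as the floor. With the 7SL genes left out of the total, Nqo1 and Slc7a11 had means of 1.34 and 1.29 TPM, so their place below 1 TPM depends on the 7SL share.

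**Figure D2:**
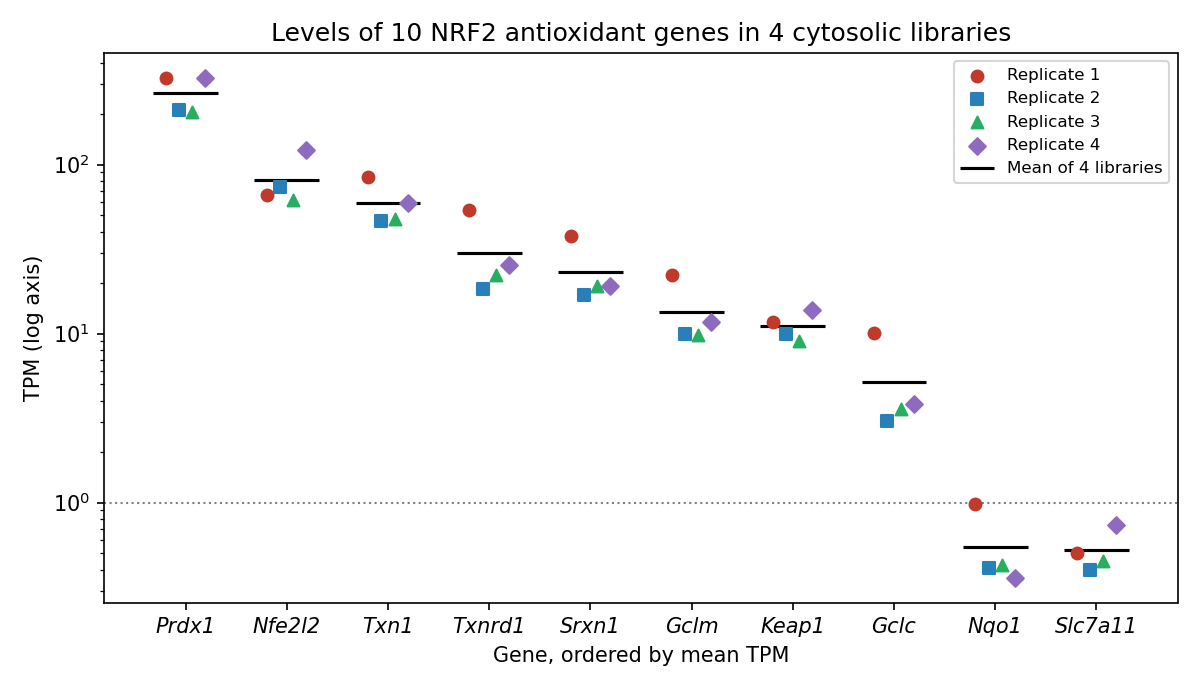
TPM of the 10 genes in each of the 4 libraries (points, log axis) with the mean of the 4 (bar), ordered by mean; the dotted line marks 1 TPM. Prdx1 leads at 204 to 325 TPM, Nqo1 and Slc7a11 lie below 1 TPM in every library, and replicate 1 is the highest point of Txn1, Txnrd1, Srxn1, Gclm, Gclc and Nqo1.

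Among the regulators, Nfe2l2 (chr2:75675513-75704641, minus strand) was read at 66.0, 74.1, 61.6 and 122 TPM in replicates 1 to 4. Replicate 4 was the highest by this measure and the other 3 lay close together. On CPM scaled by TMM, the between-library scaling of all comparisons below, Nfe2l2 was at 220, 337, 275 and 364 CPM, so replicate 1 was the lowest and replicate 4 again the highest. The log2 fold of replicate 1 against the other 3 was -0.56 ± 0.18 (SE), with an adjusted p of 0.0916 in edgeR's quasi-likelihood test, short of the threshold. Without replicate 3 the fold was -0.67 and passed, and DESeq2 called it too, at -0.58. It did not pass under the other alternatives, and in the second quantification that the authors deposited the fold was -0.42. Keap1 (chr9:21229730-21239361, minus strand) was read at 51.4, 58.8, 53.0 and 55.6 CPM, the narrowest spread of the 10 genes, with an SD of 0.0847 in log2 CPM. No library stood out, and its fold in replicate 1 was -0.12 ± 0.10, adjusted p = 0.42 in edgeR. The mRNA of the factor exceeded that of its repressor in 4 of 4 libraries, by 5.66, 7.5, 6.82 and 8.93 times in TPM, a mean difference of 2.73 ± 0.28 (SD) in log2(TPM + 1). In an exact permutation of the signs of the 4 differences (two-sided), 2 of the 16 sign patterns were as extreme, the fewest that 4 libraries allow, so no such difference can pass 0.05 here.

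Glutathione synthesis starts with glutamate-cysteine ligase, whose catalytic subunit is Gclc and whose modifier subunit is Gclm. Gclc (chr9:77754535-77794485, plus strand) was read at 48.0, 19.7, 23.5 and 16.9 CPM. Replicate 1 was far above the other 3, which lay close together. This is a log2 fold of 1.26 ± 0.18 (SE), or 2.4-fold, with an adjusted p of 0.0111 in edgeR. Gclm (chr3:122245557-122270732, plus strand) was read at 58.3, 29.8, 30.6 and 24.0 CPM, again with replicate 1 above the rest, a log2 fold of 1.05 ± 0.15 and an adjusted p of 0.0116 in edgeR. Both subunits were thus higher in the same library. Gclm nonetheless exceeded Gclc per length in 4 of 4 libraries, by 2.2, 3.3, 2.71 and 3.04 times in TPM. The excess was smaller in CPM, at 58.3 against 48.0 in replicate 1. The ratio in TPM depends on how counts were divided between Gclm transcripts of unlike length. In replicate 1, 1170.3 of the 1864 counts of Gclm were given to the 5589-base Gclm-201 and the rest to shorter ones. The mean difference, Gclc minus Gclm, was -1.28 ± 0.17 (SD) in log2(TPM + 1), as extreme as 2 of the 16 sign patterns of the exact permutation.

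Cystine for glutathione enters through system xc-, made of the transporter Slc7a11 and the heavy chain Slc3a2, which other amino acid transporters share. Slc7a11 (chr3:49892526-50443614, minus strand) was read at 197, 309, 265 and 290 expected counts, or 6.17, 6.69, 7.06 and 6.03 CPM. No library stood out. In a test for spread beyond counting error, the deviance of a Poisson fit, 9 of the 10 genes passed, near the 82.8% of all tested genes, and Slc7a11 did not, with an adjusted p of 0.259. Keap1, with a smaller spread and 1641 to 2713 counts, passed it. The log2 fold of Slc7a11 in replicate 1 was -0.10 ± 0.17 and did not pass (adjusted p = 0.712, edgeR). Slc3a2 was read at 151, 110, 125 and 131 TPM, and Slc7a11 at 0.5, 0.4, 0.45 and 0.74 TPM. The heavy chain was therefore 177 to 301 times as abundant per length. This is a difference of -6.41 ± 0.18 (SD) in log2(TPM + 1), Slc7a11 minus Slc3a2, with the same sign in 4 of 4 libraries, again 2 of the 16 sign patterns. The lowest ratio was that of replicate 4, where noncoding transcripts, described below, took 47.0% of Slc7a11.

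In the thioredoxin branch, Txn1 encodes cytosolic thioredoxin, a small protein that reduces disulfides, and Txnrd1 the selenoprotein that recharges it with NADPH. Txnrd1 (chr10:82833951-82897712, plus strand) was read at 231, 109, 127 and 95.6 CPM. Replicate 1 alone was high, with a log2 fold of 1.07 ± 0.16 (SE) and an adjusted p of 0.0123 in edgeR. Txn1 (chr4:57943373-57956411, minus strand) was read at 103, 78.6, 80.9 and 68.7 CPM. Replicate 1 was again the highest, by less: the log2 fold was 0.44 ± 0.11 with an adjusted p of 0.0502 in edgeR, just short of the threshold. Thioredoxin exceeded its reductase in 4 of 4 libraries, by 1.57 times in TPM in replicate 1 and by 2.13 to 2.51 times in the others. The mean difference was 1.04 ± 0.29 (SD) in log2(TPM + 1), likewise 2 of the 16 sign patterns.

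Peroxiredoxins use thioredoxin to reduce peroxides, and sulfiredoxin repairs peroxiredoxins that have been over-oxidised. Prdx1 (chr4:116685544-116700822, plus strand) was read at 680, 603, 555 and 576 CPM, a spread of 0.127 (SD of log2 CPM). Replicate 1 was the highest by a small margin, with a fold of 0.23 ± 0.12 in log2 that did not pass (adjusted p = 0.223, edgeR). In TPM, replicates 1 and 4 were alike, at 323 and 325, and replicates 2 and 3 lower, at 211 and 204, the 2 libraries in which 7SL RNA took the largest share of TPM. Srxn1 (chr2:152105516-152111376, plus strand), the sulfiredoxin gene, was read at 142, 87.1, 97.8 and 64.6 CPM. Replicate 1 was the highest and replicate 4 the lowest. The log2 fold of 0.77 ± 0.22 in replicate 1 did not pass (adjusted p = 0.0654, edgeR). It passed under 6 of 7 alternatives, at 0.55 to 0.92, including each of the fits that left out 1 of the other libraries.

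Nqo1 (chr8:107388225-107403206, minus strand), the quinone reductase often used as a readout of NRF2 activity, was among the lowest. It was read at 62, 51, 44 and 32 expected counts, 0.98, 0.41, 0.43 and 0.36 TPM, or 1.94, 1.1, 1.17 and 0.666 CPM. Replicate 1 was the highest and replicate 4 the lowest. The log2 fold of 0.98 ± 0.50 in replicate 1 was close in size to those of Gclm and Txnrd1, with an SE over 3 times as wide, and did not pass (adjusted p = 0.227, edgeR). The spread of Nqo1 between libraries also exceeded counting error (adjusted p = 1.56e-05, Poisson deviance).

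Between libraries, then, 3 of the 10 genes were higher in replicate 1, Gclc, Gclm and Txnrd1, and 0 were lower, beside 14.5% of all tested genes higher and 7.58% lower. At an unadjusted p under 0.05 there were 6, of which 5 were higher and Nfe2l2 lower, against 36.3% of tested genes in either direction. The median log2 fold of the 10 genes was 0.61, and that of all tested genes was 0.00. Gclc lay at percentile 95.5 of all folds, Txnrd1 at 93.8, Gclm at 93.6, and Nfe2l2 at 21. The count depended on the setting: Txn1 and Srxn1 joined without a filter and in the second quantification that the authors deposited, the target tables (5 genes each, against 13.5% and 15.7% of genes called in either direction). DESeq2 called these 5 and Nfe2l2 lower, 6 in all, against 27% of the 12135 genes to which it gave an adjusted p. Without replicate 3 there were 5, with Srxn1 and with Nfe2l2 lower, against 18.1% of genes. Without replicate 2 or replicate 4 there were 4, with Srxn1, against 22.4% and 19.6% of genes, and relative log expression scaling left 3, against 20.7%.

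The same library was the one in which 12 of 12 DNA replication genes were higher, with a median log2 fold of 2.21, and in which 2 of 10 macrophage markers were higher and 1 lower. The part of these differences in the values of the 10 genes was not tested, and replicate, culture and handling cannot be told apart in this design. No gene of the 10 was called in replicates 2, 3 or 4 by edgeR, and 0.0% of all tested genes were, in either direction. None of the 10 had an unadjusted p under 0.05 there. DESeq2 also called 0 of the 10 in each of these libraries, beside 0.057%, 0.0214% and 0.121% of genes. In those 3 comparisons replicate 1 is among the other libraries, and the SE of Gclc was 0.59 to 0.69, against 0.18 in that of replicate 1. Without replicate 1 the count was still 0 in each.

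**Figure D3:**
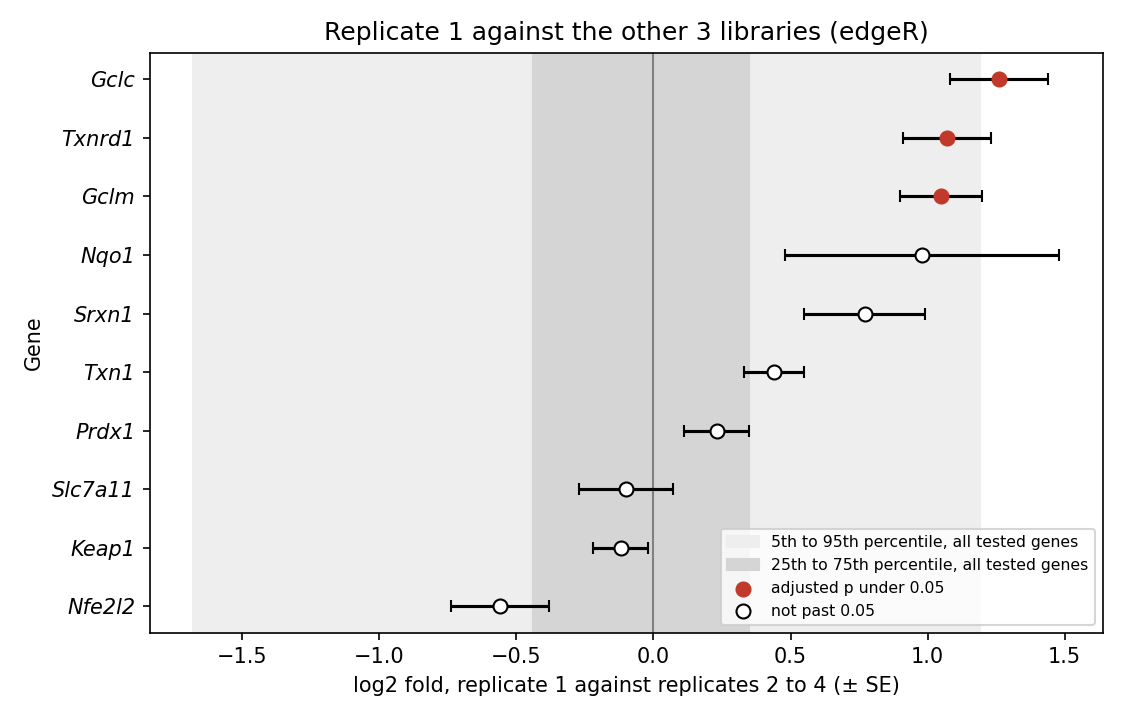
Log2 fold of replicate 1 against replicates 2 to 4 for the 10 genes (points, bars are 1 SE), filled where the edgeR adjusted p was under 0.05; the dark and light grey bands run from the 25th to the 75th and from the 5th to the 95th percentile of all 14041 tested genes. Gclc, Txnrd1 and Gclm are filled, at 1.26, 1.07 and 1.05, and Nfe2l2 is the lowest at -0.56.

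The order of the libraries was much the same for most of the target genes. Replicate 1 was the highest in CPM for 7 of the 10 genes, as for 41.4% of all tested genes. Replicate 4 was the lowest for 7, as for 25.8% of all. Both held for 6 genes, Gclc, Gclm, Txn1, Txnrd1, Srxn1 and Nqo1, and for 19.7% of all tested genes. Nfe2l2 ran the other way, lowest in replicate 1 and highest in replicate 4, at -0.41 and 0.31 in log2 CPM around its own mean. Gclc stood at 0.95 and -0.55 in the same libraries, and Nqo1 at 0.74 and -0.74. The median SD of log2 CPM over the 10 genes was 0.397, from 0.0847 for Keap1 to 0.664 for Gclc, and over all tested genes 0.255.

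**Figure D4:**
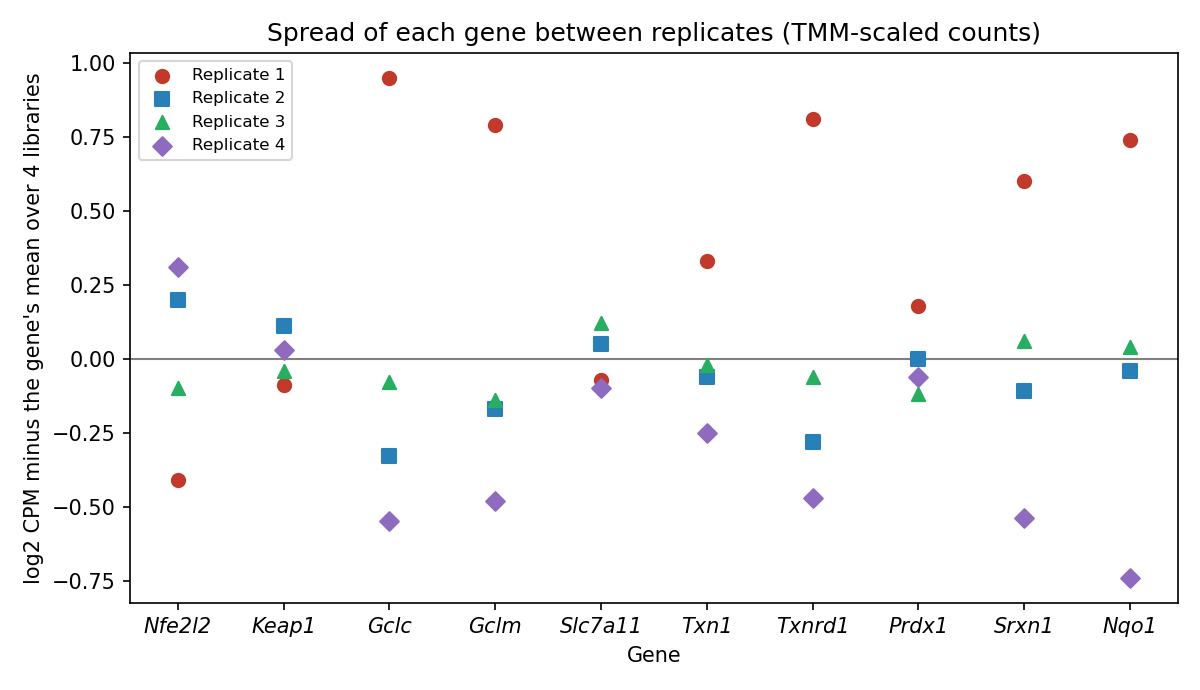
Log2 CPM of each gene minus its own mean over the 4 libraries, with 1 point per replicate. Replicate 1 is the top point of 7 genes and replicate 4 the bottom point of 7, while Nfe2l2 has replicate 4 at the top, at 0.31, and replicate 1 at the bottom, at -0.41; Keap1, Slc7a11 and Prdx1 spread least.

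The wider pathway was described with 6 lists of 56 genes, of which 51 reached a mean of 1 TPM and 54 were tested. In replicate 1, edgeR called 9 of them higher and 7 lower, or 16.7% and 13.0%, beside 14.5% and 7.58% of all tested genes, and their median log2 fold was 0.01. Among 10 partners and regulators of NRF2, 2 were higher and 1 lower. The small MAF gene Mafg, a DNA-binding partner of NRF2, was read at 22.0, 9.71, 11.0 and 13.2 TPM, a log2 fold of 0.80 ± 0.13 in replicate 1. The ligase scaffold Cul3 was higher by 0.32 ± 0.08 and the repressor Bach1 lower, at -0.58 ± 0.10. Sqstm1, the autophagy receptor that can sequester KEAP1, did not pass, at -0.08 ± 0.14, and its level was 147 ± 25.2 TPM (SD, n = 4).

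Of the 11 tested genes of the glutathione list, which covers its synthesis, recycling, use and export and cystine import, 2 were higher and 2 lower. Glutaredoxin Glrx had a log2 fold of 1.66 ± 0.14 and the exporter Abcc1 of 0.65 ± 0.08, whereas the transferases Gstm1 and Mgst1 were lower, at -1.04 ± 0.15 and -1.01 ± 0.12. The thioredoxin list had 2 of 9 higher, Txnl1 at 0.72 ± 0.08 and the mitochondrial peroxiredoxin Prdx3 at 0.43 ± 0.09, and 0 lower. In the NADPH list 2 of 6 were higher, the transketolase Tkt at 0.52 ± 0.10 and the malic enzyme Me1 at 1.51 ± 0.32, and 1 was lower, the isocitrate dehydrogenase Idh1 at -0.58 ± 0.10. Me1 had a mean of only 0.405 TPM and is named to complete the count of the list.

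Of 11 genes of haem, iron and detoxification, 1 was higher, the aldo-keto reductase Akr1b8 at 1.58 ± 0.11, and 1 lower, the epoxide hydrolase Ephx1 at -1.44 ± 0.17. Hmox1, the haem oxygenase that BACH1 represses and NRF2 activates, was read at 195, 92.5, 111 and 126 TPM. Replicate 1 was the highest, with a log2 fold of 0.56 ± 0.17 that did not pass (adjusted p = 0.0727, edgeR). The list for ATF4 and amino acid stress had 0 of 7 higher and 2 lower, Atf3 at -1.02 ± 0.21 and Ddit3 at -0.90 ± 0.17. Atf4 itself, at 30.6 ± 5.18 TPM (SD, n = 4), did not pass, with a fold of -0.11 ± 0.17.

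Transcript shares, the percent of a gene assigned to each annotated transcript, were read from the deposited transcript tables. The leading transcript was the same in all 4 libraries and in both transcript tables for 10 of 10 genes. Txn1 and Nqo1 have a single annotated transcript, and Gclc-201, Srxn1-201 and Nfe2l2-201 carried 99.6% ± 0.725, 96.6% ± 1.75 and 95% ± 3.36 of their genes (SD, n = 4). The other genes were divided. Txnrd1-201 carried 72.9%, 65.3%, 64.2% and 54.4% of Txnrd1 in replicates 1 to 4, Txnrd1-208 20.2% ± 1.7 and Txnrd1-206, which starts further downstream, 10.7% ± 3.33. The Txnrd1 window printed above is the start of Txnrd1-201 and Txnrd1-208, and transcripts starting in it carried 93.2%, 86.6%, 87.5% and 82.4% of the gene.

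Gclm was shared between Gclm-206, at 38.3% ± 2.11, Gclm-203, at 33.2% ± 4.08, and the 5589-base Gclm-201, at 17.2% ± 2.17 (SD, n = 4). Only Gclm-201 starts at the site whose upstream sequence is printed above. Keap1-205 carried 57.7%, 69.1%, 54.8% and 56.8% of Keap1, so replicate 2 was the highest. Prdx1-204 carried 60.5%, 60.2%, 55.3% and 52.6% of Prdx1, and the short Prdx1-205 35.3%, 38.7%, 40.5% and 44.3%. The target tables gave smaller shares to several leading transcripts, 46.7% for Txnrd1-201 and 39.1% for Prdx1-204, both below the values of all 4 libraries in the first transcript tables.

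Noncoding transcripts, retained introns and processed transcripts without a reading frame, are annotated for 8 of the 10 genes. Their share of Nfe2l2 was 2.29%, 2.0%, 6.73% and 8.81%, all in Nfe2l2-202, a 2-exon processed transcript. For Txnrd1 it was 1.59%, 1.14%, 6.27% and 7.93%. Slc7a11 had 12.8%, 11.7%, 20.6% and 47.0%, mostly the single-exon Slc7a11-204, from only 7.6 to 57.2 estimated reads a library. Replicates 3 and 4 were both above replicates 1 and 2 for 5 of these 8 genes, as for 46.6% of 9398 genes with noncoding transcripts. The same 2 libraries had the most Malat1 and Neat1, and the part of nuclear RNA in these shares was not tested. Gclm ran differently, with 0.0%, 17.8%, 15.3% and 11.3%.

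**Figure D5:**
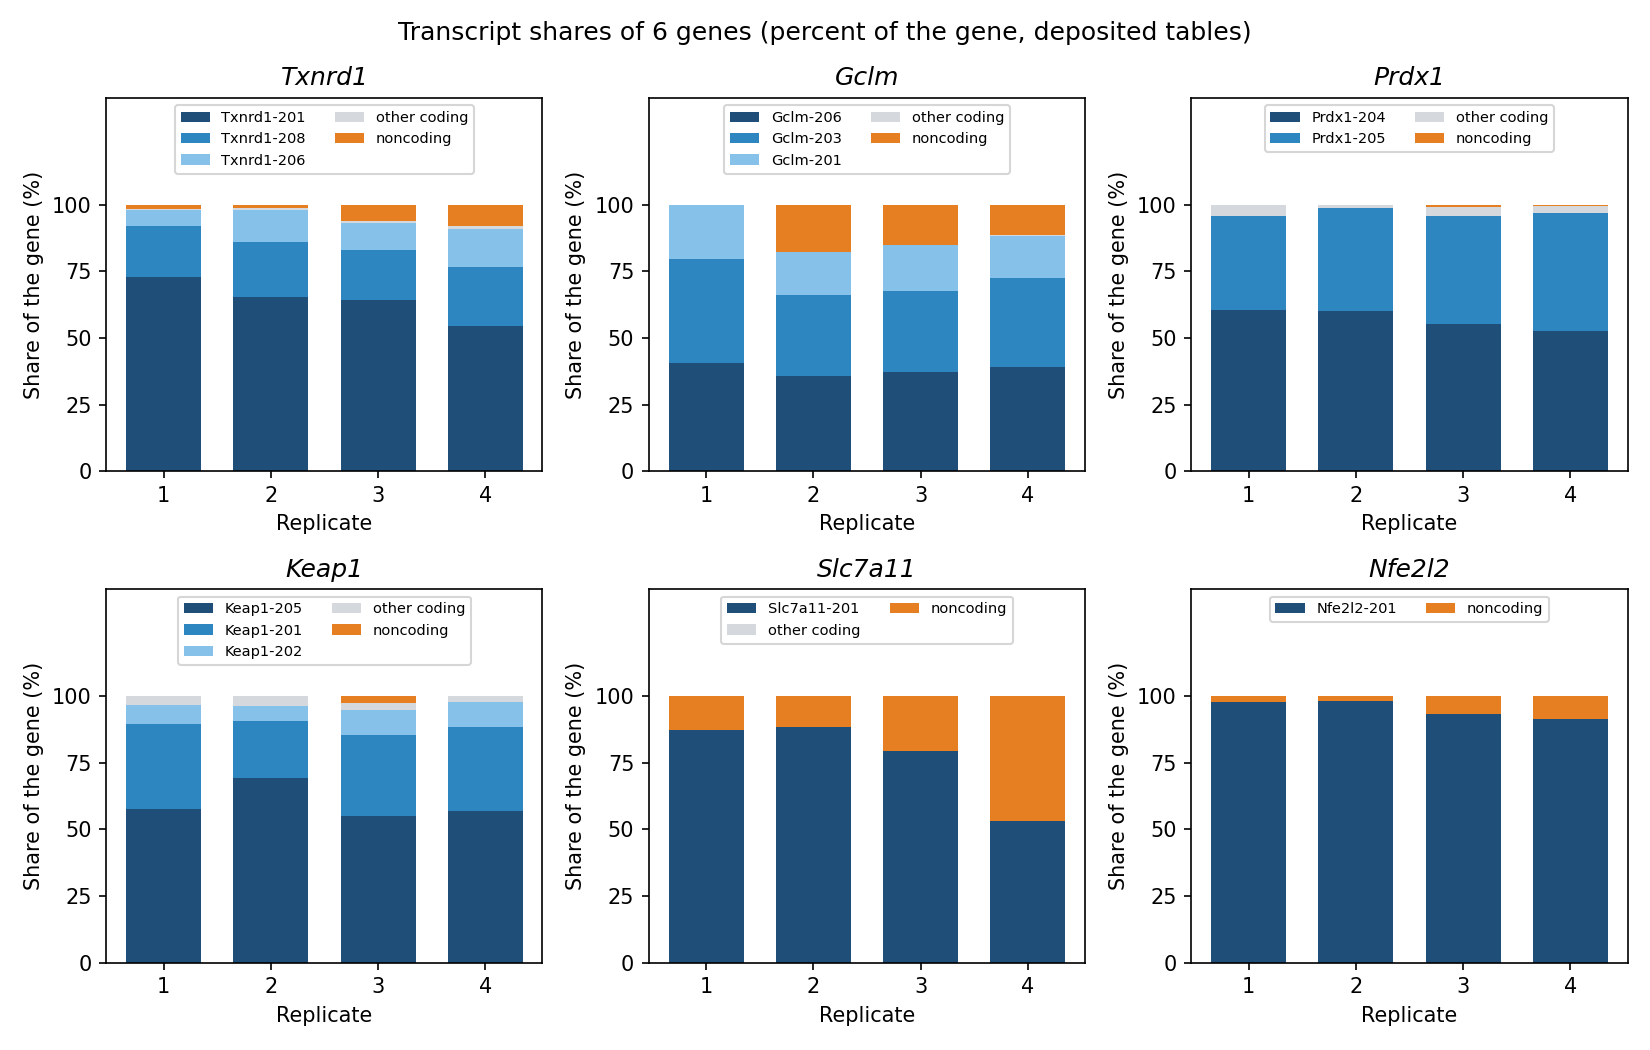
Stacked shares of each annotated transcript in 6 genes, in percent of the gene, by replicate; blue bars are coding transcripts with a mean share of at least 5%, grey the other coding ones, and orange all noncoding ones. The noncoding share is largest in Slc7a11, at 47.0% in replicate 4, and Txnrd1-201 carries 72.9% of Txnrd1 in replicate 1 and 54.4% in replicate 4.

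Other genes annotated over these loci held few counts. Gclc, Txn1, Prdx1, Srxn1 and Nqo1 overlap no other gene. Eid3, on the same strand within Txnrd1, had 31, 3, 60 and 113 counts, against 4594 to 7394 for Txnrd1, and the antisense Gm16754 over Keap1 had 6 to 21. The strand setting of the counting was not known, so reads of overlapping genes cannot be told apart, and copies of a gene elsewhere could share reads with it. The Txn pseudogene Txn-ps1 was at 0 counts in all 4 libraries.

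For the 3 genes of largest spread, the genes with the most similar course over the 4 libraries were looked up among the 10419 whose mean count reached 100, by the Euclidean distance of centred log2 CPM. Gclc was closest to Tmem201, Ddx11 and Gm16201, at distances of 0.0493 to 0.0612. Txnrd1 was closest to Sfxn5, Inf2 and Rasa2, at 0.0437 to 0.0496. Nqo1 had less close neighbours, Nckap1, Tox2 and Fpgs, at 0.173 to 0.198. Among the 10 genes themselves, Txnrd1 was the nearest to Gclc, at 0.172 and rank 33 of the 10419, with Gclm at rank 86, while Gclm was the nearest to Txnrd1, at 0.137 and rank 41. Srxn1 was the nearest to Nqo1, at 0.253 and rank 11. With 4 libraries, many genes share such a course, and Nfe2l2 was among the most distant, at rank 9353 from Gclc.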

How the data were processed

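The authors deposited 3 tables for each of the 4 libraries: 1 by gene, 1 by transcript in the same layout, and 1 by target transcript. Per the file headers, these hold expected counts or estimated counts, which need not be whole, TPM, and, in the first of the transcript tables, the percent of a gene in each transcript. The text deposited with them names mm10 and GENCODE M21. Not given in the sources used here are the aligner, the quantifiers and the strand setting. Features that name no gene held 0.0267% to 0.407% of the counts and were left out.

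Expected counts were rounded, filtered at a mean of at least 10 and scaled by TMM (edgeR 4.0.16, R 4.3.3). With 1 group, the comparisons are those of 1 replicate with the remaining 3, made with the quasi-likelihood test of edgeR and adjusted by Benjamini-Hochberg over 14041 genes, with calls at 0.05. A single replicate has no spread of its own, which is assumed equal to that of the other libraries. The SE is the fold divided by the root of F. A Poisson fit's deviance on 3 degrees of freedom tested for spread beyond counting. Level differences between 4 pairs of partners used an exact permutation of the signs of the differences in log2(TPM + 1), and adjustment over the 4 pairs left p as it was. Scripts were tested on simulated data. Alternatives were another scaling (relative log expression), no filter, the target tables, DESeq2 1.42.0, a pseudocount of 0.1, TPM without the 7SL genes, and leaving out each replicate.

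Promoters came from RefSeq, GRCm38.p6, and gene positions from GENCODE M21, by symbol and gene identifier. Gclc was not matched in the promoter table. The genes, lists and motifs were chosen with earlier results of these data known. The text names the 10 genes whatever their value, up to 4 called genes per list and direction with a mean of at least 1 TPM by size of fold, stated partners of a member, and for the 3 most variable members the 3 genes of most similar course. Floors cover counting error only, whereas the SD and the SE also carry the spread between libraries. Python 3.11.15, numpy 2.4.6, pandas 2.3.3 and matplotlib 3.10.9 were used for tables and figures.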

Additional observations from a re-analysis of the deposited data

Results flagged for a closer look

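In 28 sets of 4 values, TPM and scaled CPM of the 10 genes and the leading transcript's share in the 8 genes with several transcripts, 5 had 1 library far from the other 3, measured as its gap to the nearest of them over the whole range and set against Dixon's 95% critical value. The nominal rate of about 1 in 20 sets holds for independent sets of normal values. These sets are not independent, because TPM and CPM come from the same counts. The share of all tested genes marked by this rule was not computed, so no excess of the 10 genes can be read from the count. In TPM, replicate 1 stood off for Gclc, at 10.1 against 3.03 to 3.85 (a gap of 0.885 of the range), for Gclm, at 22.3 against 9.77 to 11.7 (0.845), for Srxn1, at 37.7 against 16.8 to 19.1 (0.886), and for Nqo1, at 0.98 against 0.36 to 0.43 (0.887). None of the 10 genes was so marked in scaled CPM. Replicate 4 was the lowest library of Gclc, Gclm, Srxn1 and Nqo1 by that measure, and its part in this was not tested. The share of Gclc-201 was 98.5% in replicate 1 and 100.0% in the others (a gap of 1 times the range), which rests on 1.8 estimated reads given to another transcript.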

How the results depend on the processing

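The count of genes called in replicate 1, 3 in the fit reported, was 3 with relative log expression scaling, 5 without a filter, 5 in the target tables and 6 with DESeq2, and 4 to 5 when 1 of the other replicates was left out. The share of genes called, of those given an adjusted p in the same fit, was 20.7%, 13.5%, 15.7% and 27%, and 18.1% to 22.4%. In DESeq2 these were 12135 genes. Gclc, Gclm and Txnrd1 were called in all 7 of these alternatives. The fold of Keap1 changed sign in the target tables, to 0.04 from -0.12, both short of the threshold; the cause was not tested. The median level of the 10 genes, 4.17 in log2(TPM + 1), was 2.91 in the target tables and 5.44 without the 7SL genes, which removes their share from the total. The 4 level differences between partners kept their sign in all 6 alternatives each, and the counts of 0 for replicates 2, 3 and 4 stayed 0 in all 7 alternatives each. Nqo1 and Slc7a11 rest on the fewest counts of the 10 genes, 32 to 62 and 197 to 309 a library. No paired analysis was possible because there is only 1 group.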
